A study of Hipposideros armiger with 2 samples.

Results

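Complex I, or NADH dehydrogenase, is the entry point of the mitochondrial respiratory chain. It takes electrons from NADH, passes them through a flavin and a chain of iron-sulfur clusters to ubiquinone, and pumps protons across the inner membrane. Its peripheral arm holds the N module, where NADH is oxidised, and the Q module, where ubiquinone is reduced; its membrane arm holds the proton pumps. Most subunits are encoded in the nucleus, the hydrophobic pump subunits are encoded in mitochondrial DNA, and a set of assembly factors builds the enzyme without staying in it. Liver, heart and muscle are all rich in mitochondria.

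The genes described here are the nuclear-encoded structural subunits and the NDUFAF assembly factors, taken as all assembled genes whose best Swiss-Prot protein name begins with NDUF followed by A, B, C, S, V, AB or AF and a number. The rule found 90 of 55378 assembled genes, under 46 of 12783 names: 38 structural names with 81 assembled genes and 8 assembly factor names with 9. Of the 37 nuclear-encoded structural subunits of the mammalian enzyme, 36 were found; no assembled gene carried the name NDUFA3. The other structural names were NDUFA4, which was first described in complex I and whose protein is now assigned to cytochrome c oxidase, and its paralog NDUFA4L2. RefSeq's annotation of the bat assembly ASM189008v1 lists 41 of the 46 names as gene symbols.

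The data are poly(A) RNA sequencing of 2 libraries of the great Himalayan leaf-nosed bat (Hipposideros armiger), both from wild-type animals of the CW cave, with the labels liver and heavy metals exposure. With a single group, no control or unexposed library enters, no test between conditions was possible, and every difference below is between replicate 1 and replicate 2 of that group. The design text describes adult males and separate animals, but nothing in the labels ties each library to its own animal, so the spread between the libraries may in part be technical. Expected counts summed to 18741210 for replicate 1 and to 18778331 for replicate 2.

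The label liver was checked against markers. All 16 hepatocyte markers were found; their summed level was 16790 TPM, a level relative to transcript length and library size, in replicate 1, against 476 TPM in replicate 2, with 0 markers at a count of 0. Alveolar and airway epithelium markers, which liver should lack, were all found too (12 of 12), and their sum was 12528 TPM in replicate 1, against 19934 TPM in replicate 2. Replicate 2 thus held more marker RNA of lung epithelium than of hepatocytes, and replicate 1 held much of both. In bulk tissue, fewer cells of a type and less RNA per cell cannot be told apart.

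Structural subunits were abundant and assembly factors scarce. Summed over names, structural subunits reached 3844 TPM in replicate 1, against 3149 TPM in replicate 2 (mean 3496 ± 491, SD, n = 2). Assembly factors together had 119 TPM in replicate 1, against 129.7 TPM in replicate 2 (mean 124 ± 7.5). The median structural name had 88.9 TPM in replicate 1 and 75.9 in replicate 2, against 6.6 and 8.0 TPM for the median assembly factor. The ratio of the sums was 32.3 in replicate 1 and 24.3 in replicate 2. Structural subunits took 0.175% (0.173% to 0.177%, Wilson 95% interval) of all counts in replicate 1, against 0.134% (0.132% to 0.136%) in replicate 2. Assembly factors took 0.00763% in replicate 1 (0.00724% to 0.00804%) and 0.00819% in replicate 2 (0.00779% to 0.00861%). Such intervals, here and below, hold counting error alone and no spread between animals or libraries. Reads counted without identifiers of single molecules can repeat one, which would make the intervals too narrow.

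**Figure D1:**
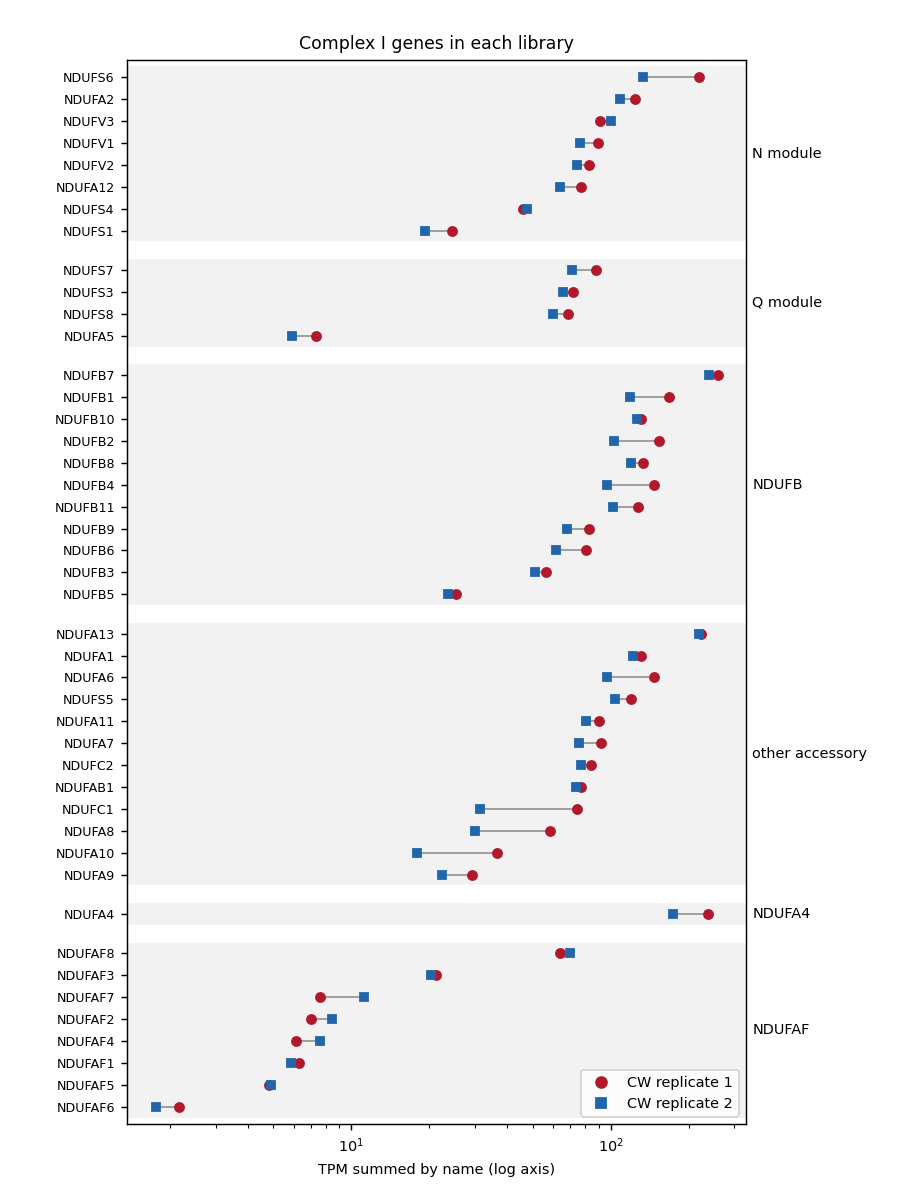
TPM summed by name, on a log axis, for each complex I name shown; circles are CW replicate 1, squares are CW replicate 2, and grey lines join the libraries. Most structural subunits lie between 50 and 150 TPM, with the replicate 1 point to the right, while all but 2 assembly factors lie under 20 TPM.

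The core subunits, which carry the redox centres of the peripheral arm and have bacterial counterparts, lay close together in level. NDUFV1, which binds NADH and the flavin, was at 89.7 and 76.2 TPM in replicates 1 and 2, and NDUFV2, an iron-sulfur protein beside it, at 82.2 and 74.1 TPM. NDUFS7, which holds the last iron-sulfur cluster before ubiquinone, was at 88.1 and 71.0 TPM. Replicate 1 was the higher library for each core subunit named here. NDUFS3, a core protein of the Q module, had 71.7 and 65.8 TPM. NDUFS8, the iron-sulfur protein next to NDUFS7, had 68.7 and 60.2 TPM. NDUFS1, the largest core subunit, with several iron-sulfur clusters, stood apart at 24.5 and 19.3 TPM; its longest assembled gene spans 2713 bases. Apart from NDUFS1, neighbours in the order of mean level (NDUFV1, NDUFS7, NDUFV2, NDUFS3, NDUFS8) were 1.4 to 9.4 TPM apart. Except between NDUFV2 and NDUFS3, that gap was below the distance between the libraries for at least 1 of the pair.

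Accessory subunits, which surround the core and have no bacterial counterpart in most cases, spread more widely. The highest by mean level were NDUFB7, a cysteine-rich protein on the intermembrane space side, at 249 ± 14.6 TPM, and NDUFA13, also known as GRIM-19, at 221 ± 3.8 TPM. NDUFS6, a zinc-binding subunit of the N module, had 218 TPM in replicate 1 and 133 in replicate 2. The small membrane arm subunits NDUFB1 (143 ± 34.7 TPM) and NDUFB10 (128 ± 3.0 TPM) came next. NDUFB1 stood at 168 TPM in replicate 1 but at 119 TPM in replicate 2, where NDUFA1 (121.8 TPM) and NDUFB8 (120.2 TPM) lay above it. At the other end stood NDUFA5 of the Q module at 6.6 ± 0.99 TPM, with only 28 counts in replicate 1 and 20 in replicate 2, all from 1 assembled gene with a mouse best match. NDUFB5 (24.5 ± 1.2 TPM), NDUFA9 near the ubiquinone site (25.8 ± 4.9 TPM), NDUFA10 (27.2 ± 13.2 TPM) and NDUFA8 (58.3 TPM in replicate 1 and 30.0 TPM in replicate 2) completed the 5 lowest. The highest tested structural name was 37.8 times the lowest, NDUFA5. That range rests on the low counts of the mouse-match gene of NDUFA5, whose species of origin was not tested. The next-lowest tested structural name, the core subunit NDUFS1, had a mean of 21.9 TPM. The quartiles of the tested structural names were 64.4 and 122 TPM.

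The order of levels was close to the same in both libraries. Across the 37 structural names tested, the Spearman correlation of TPM between replicate 1 and replicate 2 was 0.957; this is a description across genes that share a library, not across independent samples. By part of the enzyme, the median name of the NDUFB group, all in the membrane arm, had 130.6 TPM in replicate 1 and 101.8 in replicate 2. The N module median was 85.9 and 75.1 TPM, and the Q module median 71.7 and 65.8 TPM. NDUFA4 stood among the highest, with 237 TPM in replicate 1 and 173 in replicate 2. Its paralog NDUFA4L2, known from low-oxygen responses, had 0 counts in replicate 1 and 1 count in replicate 2, under the detection floor of 3 counts.

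The libraries were then compared gene by gene, on counts summed by name, scaled with TMM factors, as the log2 ratio of replicate 1 over replicate 2 of CPM + 1 (CPM, counts relative to the scaled library size), less the median of all names. Of the 38 structural names, 37 had a mean of at least 1 CPM. All 37 were higher in replicate 1, with ratios of up to 1.15 and a median of 0.61. Of them, 21 were over 1.5-fold higher and 6 over 2-fold higher in replicate 1, that is 56.8% over 1.5-fold, and 0 were over 1.5-fold lower. Over all 11289 names tested, 8.23% were over 1.5-fold higher, 5.16% over 2-fold higher and 0.487% over 1.5-fold lower. A comparison of 1 library with 1 library has no replicate check. Without centring and with plain library sizes, 36 of 37 remained above 0, with a median of 0.36, and 8 were over 1.5-fold apart. On that scale the median of all names is -0.24. From TPM without centring, the median of all names was -0.33. The pairs of TPM given here are not centred and so lean towards replicate 2.

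Counting error was small beside these differences. A 95% interval for each ratio was taken from the Wilson interval of the replicate 1 share of a name's counts. For 36 of 37 structural names it lay above 0, and for NDUFA5 it ran from -0.07 to 1.56. For scale, the quartiles of the ratio were -0.12 and 0.11 over all 4237 names with 700 to 3000 counts. Pooled over the 37 names, 32803 counts in replicate 1 against 25180 in replicate 2 gave a ratio of 0.64 (counting interval 0.62 to 0.67).

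**Figure D2:**
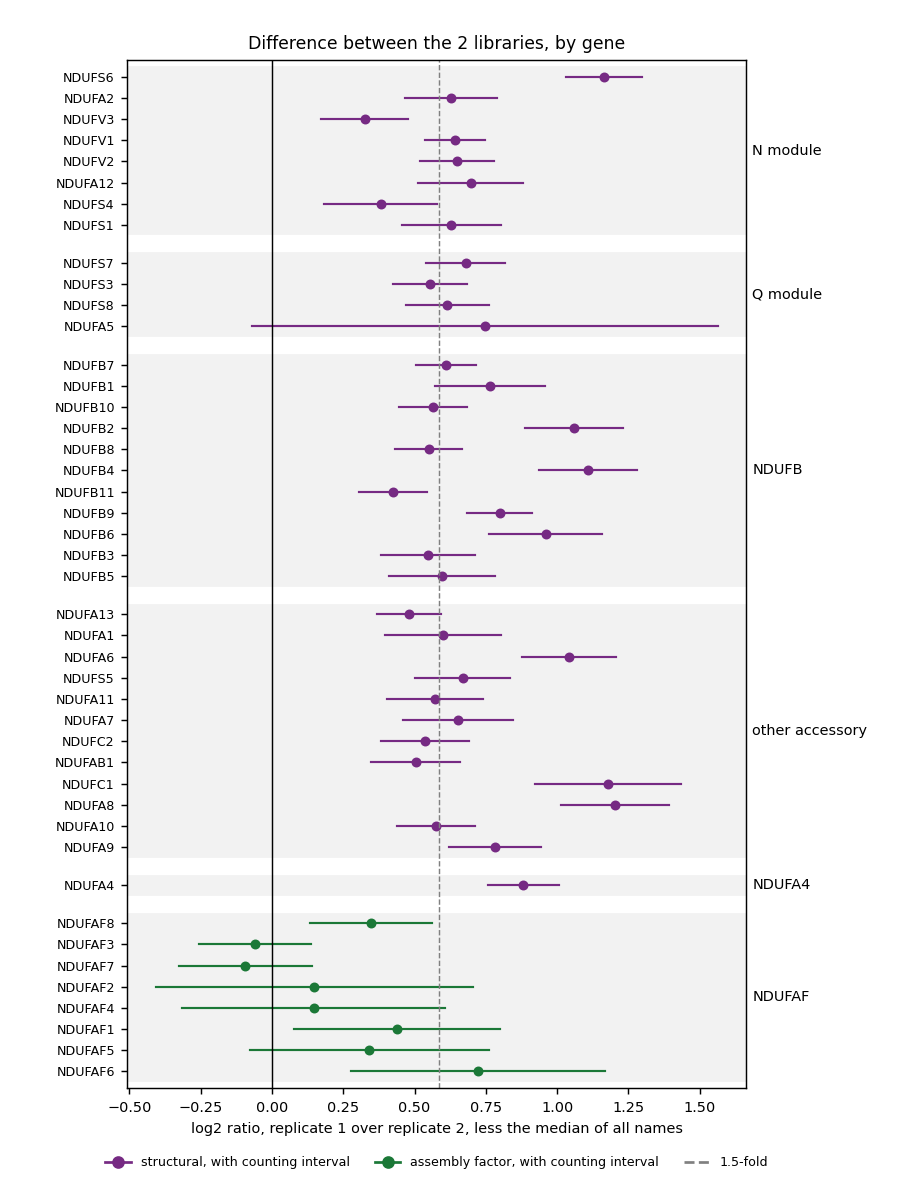
Log2 ratio of replicate 1 over replicate 2 for each tested complex I name shown, without a pseudocount and less the median of all names; lines are 95% intervals for counting error only, the solid line is no difference and the dashed line is 1.5-fold. Structural subunits lie to the right of 0, while assembly factors lie between -0.09 and 0.72 and 5 of their 8 intervals include 0.

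The 6 names over 2-fold higher in replicate 1 were all accessory subunits. NDUFA8, a cysteine-rich intermembrane space protein, had 643 counts in replicate 1 and 335 in replicate 2, a 2.23-fold scaled ratio. NDUFS6 had a 2.21-fold ratio, from 1296 counts in replicate 1 and 693 in replicate 2. NDUFC1, a short membrane arm subunit, was 2.14-fold higher in replicate 1, with 353 counts against 187. These values come from separate parts of the enzyme. NDUFB4 (2.10-fold), NDUFB2 (2.03-fold) and NDUFA6 (2.01-fold) completed the set; the first pair are membrane arm proteins, and NDUFA6 is a protein of the LYR family that binds the acyl carrier protein. NDUFB4 had 146 TPM in replicate 1 and 97.1 TPM in replicate 2. NDUFB2 had 153 and 103 TPM, and NDUFA6 had 147 and 97.1 TPM. No core subunit was over 2-fold apart.

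A further 15 names lay between 1.5-fold and 2-fold higher in replicate 1. The widest were NDUFB6 (1.89-fold; 80.1 TPM in replicate 1 and 61.4 TPM in replicate 2), NDUFA4 (1.82-fold), NDUFB9 (1.73-fold; 82.9 and 67.8 TPM) and NDUFA9 (1.69-fold; 29.3 and 22.4 TPM). NDUFB9 is another LYR family protein. NDUFB1 was 1.66-fold higher, and NDUFA12, a paralog of the assembly factor NDUFAF2, was 1.59-fold higher with 76.9 TPM in replicate 1 and 63.7 TPM in replicate 2. NDUFS5, a cysteine-rich intermembrane space protein, was 1.57-fold higher (119.99 and 104 TPM). The core subunits NDUFS7 (1.58-fold), NDUFV2 (1.55-fold), NDUFV1 (1.55-fold), NDUFS1 (1.52-fold) and NDUFS8 (1.52-fold) belonged to this band, as did NDUFA7 (1.54-fold; 92.1 and 75.6 TPM), NDUFA2 (1.53-fold; 123.9 and 108.9 TPM) and NDUFB7 (1.52-fold). Many of these lie close to the 1.5-fold line, and their intervals reach across it.

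The remaining 16 tested structural names were at most 1.49-fold higher in replicate 1. NDUFV3, a small N module subunit, was 1.25-fold higher, and NDUFS4, an N module subunit whose loss causes Leigh syndrome in humans, 1.29-fold, with 45.8 TPM in replicate 1 and 47.5 TPM in replicate 2. NDUFV3 and NDUFS4 were the only tested structural names with a higher TPM in replicate 2. NDUFA5, with its low counts, was 1.33-fold higher, NDUFB11 1.34-fold, NDUFA13 1.39-fold and NDUFAB1, the mitochondrial acyl carrier protein, 1.40-fold. The core subunit NDUFS3 had 1.46-fold.

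Assembly factors differed less between the libraries. Their median ratio was 0.20, with 6 of 8 above 0 and 0 over 1.5-fold apart in either direction, which in 8 names is near the background of 8.23% higher. With library sizes and no centring, the median was -0.0061 and 4 of 8 were above 0. Pooled counts gave 0.16 (counting interval 0.05 to 0.26), below the pooled interval of the structural subunits. NDUFAF8, the partner of NDUFAF5, was the highest, with 63.8 TPM in replicate 1 and 69.5 in replicate 2 (ratio 0.33). NDUFAF3, which with NDUFAF4 binds the growing Q module, was at 21.2 and 20.4 TPM (ratio -0.06), and NDUFAF4 at 6.1 and 7.6 TPM (0.11). NDUFAF7, a mitochondrial protein methyltransferase, was at 7.6 and 11.2 TPM (-0.09). Only NDUFAF3 and NDUFAF7 lay below 0, and both counting intervals include 0. NDUFAF2 had 7.0 TPM in replicate 1 and 8.5 TPM in replicate 2 (0.10), and NDUFAF1, which works with ACAD9 and ECSIT on the membrane arm, at 6.3 and 5.8 TPM (0.38). NDUFAF5, which hydroxylates NDUFS7, was at 4.8 and 4.9 TPM (0.28). NDUFAF6 had the widest ratio, 0.58, from 95 counts in replicate 1 and 69 in replicate 2, at 2.2 and 1.8 TPM. With a filter of at least 10 CPM, only 3 assembly factors were left, and their median ratio was -0.045.

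Other genes that act on complex I assembly gave similar values. All 14 were found, DMAC1 and DMAC2 under the older names TMEM261 and ATP5SL, 13 were tested, and their median ratio was 0.10, with 2 over 1.5-fold higher in replicate 1 and 0 lower. The exceptions were AIFM1 (1.26; 447 counts in replicate 1 and 212 in replicate 2), a flavoprotein needed for import of intermembrane space proteins, and FOXRED1 (0.74; 312 and 215 counts). By mean level the highest were ECSIT at 25.9 TPM in both libraries, ACAD9 at 25.5 and 21.7 TPM, and TIMMDC1 at 23.1 and 19.6 TPM. The difference between structural and assembly genes is one between these 2 libraries and has no replicate check.

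Nuclear subunits of the other respiratory complexes were set beside complex I. Complex IV had a median ratio of 0.61, with 5 of 9 tested names over 1.5-fold higher in replicate 1. Complex II, with its assembly factors, had 0.57 (4 of 8), complex III 0.82 (7 of 9) and complex V 0.81 (11 of 15). In complex II, the subunits SDHA, SDHB, SDHC and SDHD were at 1.04, 1.499, 0.64 and 0.81. Its assembly factors SDHAF1, SDHAF2, SDHAF3 and SDHAF4 were lower, at -0.23, 0.497, 0.39 and 0.08. The complex II median thus mixes subunits and assembly factors, whereas the structural median of complex I holds no assembly factors. SDHC had 1407 counts in replicate 1 and 1074 in replicate 2, of which a single assembled gene of 1239 bases gave 455 and 17. The SDHC ratio, and its place over 1.5-fold, thus rest in part on that assembled gene. No name of complexes II to V was over 1.5-fold lower. By mean level the leading names were SDHA, SDHB and SDHD in complex II, UQCRC1, UQCR10 and UQCRB in complex III, COX7C, COX6B1 and COX4I1 in complex IV, and ATP5E, ATP5G1 and ATP5J2 in complex V. UQCR11 was the widest of complex III, at 1.91, and ATP5L of complex V, at 2.13. ATP5L had 260 counts in replicate 1 and 55 in replicate 2. A single assembled gene of 258 bases gave 211 and 4 of them. The next of complex V was ATP5G3, at 1.62. The complex I ratios ended at 1.15, so names above that value were found in complexes II, III and V. These medians were not tested against each other.

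**Figure D3:**
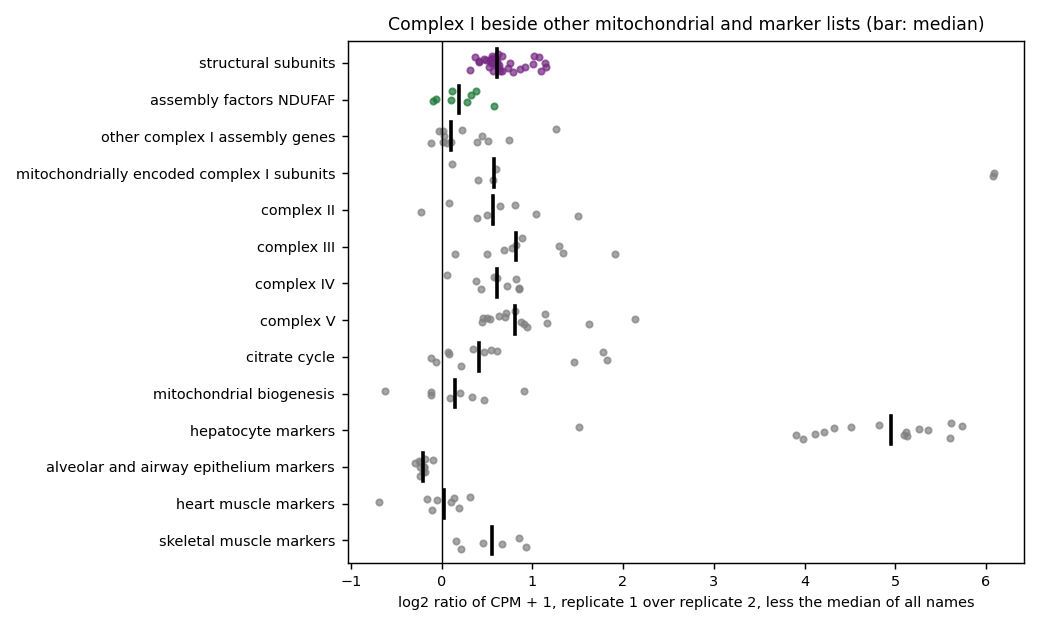
Log2 ratio of CPM + 1, replicate 1 over replicate 2 and less the median of all names, for tested genes of complex I (purple and green) and of other lists (grey); points are genes, spread vertically at random, black bars are medians of all tested genes of a list and the vertical line is 0. Structural complex I subunits centre on 0.61 and assembly factors on 0.20, against 4.96 for hepatocyte markers and -0.21 for alveolar and airway epithelium markers.

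The mitochondrially encoded subunits of complex I had a median ratio of 0.58, with 3 of 6 over 1.5-fold higher in replicate 1, and 2 of the 6 stood far above the rest. Of 7 names, 6 were found, with none for MT-ND4L, and they took 58382 TPM in replicate 1 and 47108 TPM in replicate 2. MT-ND2, MT-ND5 and MT-ND1, subunits of the membrane arm, were highest by mean level. MT-ND2 had 15380 TPM in replicate 1 and 20016 TPM in replicate 2, and MT-ND5 had 18251 and 13525 TPM. MT-ND4 had a ratio of 0.60, MT-ND1 0.56, MT-ND2 0.41 and MT-ND5 0.11. MT-ND3 and MT-ND6 had ratios of 6.08 each, from 18691 counts in replicate 1 against 310 in replicate 2 and from 40879 against 704. Of 29 mitochondrially encoded complex I assembled genes with at least 100 summed counts, 11 were over 16-fold higher in replicate 1. All 6 names had such an assembled gene. One of MT-ND4 had 67390 counts in replicate 1 and 1023 in replicate 2. One of MT-ND2 had 38408 and 637, one of MT-ND1 35768 and 578, and one of MT-ND5 9875 and 173. The summed ratios of these names thus mix such assembled genes with others that differed less.

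Of 54 assembled genes of nuclear complex I names with at least 100 summed counts, 1 was over 16-fold higher in replicate 1. The share over all 11148 named assembled genes was 2.81%, so this count is near the background. That assembled gene belongs to NDUFV3, is 546 bases long and had 107 counts in replicate 1 and 0 in replicate 2. Set against the floor of 3 counts in replicate 2, it was at least 43.2-fold higher in replicate 1. Without it, the ratio of NDUFV3 was 0.08, and its level was 75.3 TPM in replicate 1 and 100.2 in replicate 2. NDUFA10, which has the fold of a nucleoside kinase, had an assembled gene of 315 bases with 22 counts in replicate 1 and 0 in replicate 2, which was at least 8.9-fold higher. Without that piece, NDUFA10 had 26.6 TPM in replicate 1 and 17.9 in replicate 2, and its ratio on counts was 0.53 in place of 0.56. A similar piece of NDUFS1 had 9 and 0 counts. The 4 names with the most assembled genes, 4 each, were NDUFA11, NDUFS1, NDUFS5 and NDUFV3.

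Hepatocyte and skeletal muscle markers were higher in replicate 1, as structural complex I subunits were, and the other marker lists differed less. Hepatocyte markers had a median ratio of 4.96, with 16 of 16 over 1.5-fold higher in replicate 1, and their sum was 35.2 times as high there. Alveolar and airway epithelium markers had a median of -0.21, with 0 of 11 above 0. Heart muscle markers had a sum of 403 TPM in replicate 1, against 528 TPM in replicate 2 (median ratio 0.02; 8 of 8 found, none at a count of 0), and skeletal muscle markers one of 335 and 294 TPM (median 0.56; 7 of 7 found, none at 0). Erythroid markers had a sum of 29895 TPM in replicate 1, against 36323 TPM in replicate 2 (4 of 5 found, none at 0). Their median ratio was 0.12, with all 4 tested names above 0. The TPM sums, unlike the ratios, are not centred on the median of all names. Of 6 skeletal muscle markers tested, 3 were over 1.5-fold higher in replicate 1. By TPM, MYH1 and MYLPF were higher in replicate 2. The part of all these tissues in the complex I difference was not tested.

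A feature that the naming rule did not use was the species of the best protein match. The leading assembled gene of a name matched cattle for 26 of 46 names and mouse for 3. Beside a leading gene with another match, however, many structural names had a second, lower assembled gene with a mouse match: 25 of 38 names, or 65.8%, had both kinds, against 19.8% of all 12783 names. Other mitochondrial lists had such pairs too: 77.8% of complex III names, 58.3% of the citrate cycle list, 55.6% of complex V, 40% of complex IV and 37.5% of complex II. NDUFA4 was the reverse case, with mouse matches for its leading genes. For 21 of these structural names, the mouse-match genes had at least 20 summed counts and the others at least 100. From which species these transcripts came was not tested, and a best match alone does not tell. The submitters' processing notes list the mouse build mm10 for replicate 1, without saying how it was used.

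In those 21 names, from which the minimum counts left out NDUFA4, the mouse-match genes were lower and spread less in level than the others. The higher minimum for the other genes favours that order. Mouse-match genes ran from 2.2 to 8.8 TPM in replicate 1 and from 1.96 to 9.4 TPM in replicate 2. The other genes of the same names ran from 16.7 to 218 TPM in replicate 1 and from 9.9 to 210 TPM in replicate 2. Across the 21 names, the Spearman correlation between the 2 levels was 0.16, a description over genes that share both libraries. NDUFA13 had 6.1 TPM of mouse-match genes in replicate 1 and 8.6 TPM in replicate 2, beside 218 and 210 TPM of the others. NDUFB5 had 6.0 and 7.0 TPM of mouse-match genes beside 19.4 and 16.7 TPM. NDUFA5, outside the 21 names because it had a mouse-match gene alone, was at 7.3 and 5.9 TPM, within the mouse-match ranges. NDUFAB1, also with a mouse-match gene alone, was far above them at 77.0 and 73.5 TPM.

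**Figure D4:**
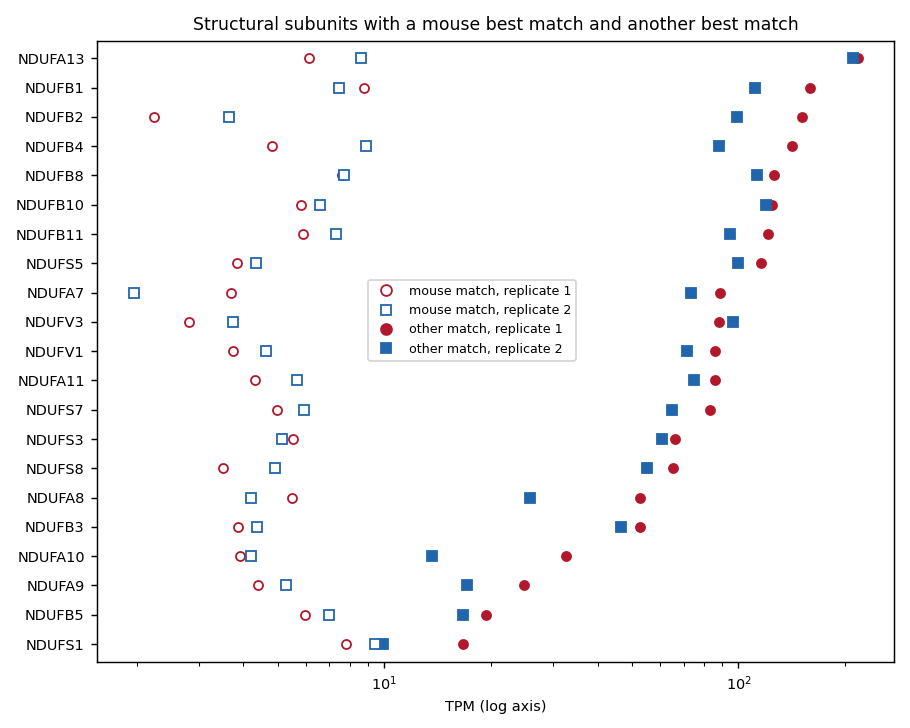
TPM on a log axis for the 21 structural names that have both a mouse best match (open symbols) and another best match (filled symbols); circles are CW replicate 1 and squares CW replicate 2, and names are ordered by the filled circles. Open symbols stay between 1.96 and 9.4 TPM while filled symbols run from 9.9 to 218 TPM.

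The difference between the libraries was smaller in the mouse-match genes. Their pooled counts, 892 in replicate 1 and 898 in replicate 2, gave a ratio of 0.25 (counting interval 0.12 to 0.39), whereas the other genes of the same names, with 17449 and 13315 counts, gave 0.65 (0.62 to 0.68). The ratio of the other genes was the higher in 20 of 21 names; NDUFA7 was the exception, with 17 and 8 mouse-match counts in replicates 1 and 2. By TPM, the median mouse-match share of a name was 5.1% in replicate 1 and 7.2% in replicate 2, and it was lower in replicate 1 for 20 of 21 names. Over all 756 names with a mouse-match share under 50% and the same minimum counts, the share was higher in replicate 2 for 54.6%. With no limit on the share, it was higher in replicate 2 for 3 of 3 names of complex II, 5 of 5 of complex III, 8 of 8 of complex V, 5 of 6 of the citrate cycle and 1 of 2 of complex IV. For the 748 of the 756 names that gave both ratios, the medians were 0.11 for mouse-match genes and 0.04 for the others. Leaving out mouse-match genes gave a structural median of 0.63, with 23 of 34 names over 1.5-fold higher in replicate 1.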

How the data were processed

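The authors deposited, per library, expected counts (named so from the count columns in the file headers) and a column read as TPM, since the deposited values sum to 996837 and 996239. Features are Trinity assembled genes. Per the submitters' processing notes, cutadapt 1.9 was used; assembler version, quantifier, strand setting and parameters are not given in the sources used here. Names are the authors' best Swiss-Prot matches, upper-cased, often shared by several assembled genes; how reads were divided among similar copies is unknown.

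Expected counts were rounded, TMM factors (0.910 and 1.10) came from edgeR 4.0.16 in R 4.3.3 over all assembled genes, and counts were summed by name. Ratios used log2(CPM + 1), which understates changes of low genes, at a mean of at least 1 CPM, less the median (0.01). For 16-fold differences, log2 ratios of counts + 1 were used on assembled genes with at least 100 summed counts. Wilson intervals came from statsmodels 0.14.6, in Python 3.11.15. DESeq2 1.42.0 size factors were an alternative. The procedure was tested on simulated counts. Members, lists, threshold and naming rule (core subunits, 5 highest and 5 lowest accessory subunits, names over 1.5-fold apart, all NDUFAF, most assembled genes) were chosen with earlier results of these data known; the split by mouse match was chosen after seeing the data. Further names were chosen after their values were seen. No sequences are shown. The values of 1 structural subunit, which is counted in sums and medians, are not reported here.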

Additional observations from a re-analysis of the deposited data

How the results depend on the processing

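Summed TPM of structural subunits and assembly factors and their ratio moved by less than 1 SD when only the leading assembled gene of a name, only assembled genes of at least 1 TPM, or no mouse-match genes were used; without each replicate in turn they ranged from 3149 to 3844 TPM, from 119 to 129.7 TPM and from 24.3 to 32.3. The structural median ratio was 0.61 and stayed between 0.60 and 0.63 under other scaling, pseudocount, filter and gene choices, but was 0.56 from TPM and 0.36 with library sizes and no centring, which also left 8 in place of 21 structural names over 1.5-fold apart; that last setting, the mouse-match setting and the one without NDUFA4 and NDUFA4L2 were chosen after seeing the data. The assembly factor median changed sign, to -0.045 at 10 CPM, where 3 are tested, and to -0.0061 with library sizes and no centring. Names over 1.5-fold apart numbered 984, but 554 at 10 CPM, where fewer are tested, and 2277 from TPM; the cause was not tested for TPM. In these settings 65.1% to 99.1% of such names were higher in replicate 1, against 94.4% in the main setting, with 65.1% for library sizes without centring, 76.1% from TPM and 87.2% with a pseudocount of 0.1 CPM. Over 16-fold higher complex I assembled genes numbered 1, or 2 at 20 summed counts. Ratios need both libraries, so no replicate could be left out of them. No paired analysis was possible because both libraries belong to a single group.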

Other observations

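Genes of mitochondrial supply gave mixed values between the libraries. The citrate cycle list, which feeds NADH to complex I, had 12 of 12 names tested and a median ratio of replicate 1 over replicate 2 of 0.41, with 4 over 1.5-fold higher in replicate 1 and 0 lower. FH was at 1.82, SUCLG1 at 1.78 and SUCLG2 at 1.46, while CS, the entry enzyme, was at -0.06 and IDH3A at -0.12. The FH ratio came from 1530 counts in replicate 1 and 504 in replicate 2, a wider difference than that of its TPM. The 3 highest by mean level were SUCLG1 (253 TPM in replicate 1 and 43.2 TPM in replicate 2), MDH2 (132 and 112 TPM) and FH (95.97 and 81.9 TPM). A single SUCLG1 assembled gene of 258 bases, with 227 counts in replicate 1 and 4 in replicate 2, gave 166 and 3.3 TPM. The rank of SUCLG1 and most of its TPM difference rest on that assembled gene.

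Regulators of mitochondrial biogenesis were lower than most structural subunits, with mean levels from 1.2 to 23.1 TPM. The highest were PPRC1 (17.4 TPM in replicate 1 and 28.8 in replicate 2), POLRMT (12.8 and 11.8 TPM) and ESRRA (10.2 and 11.6 TPM). Of 10 names, 9 were found and 8 tested, with a median ratio of 0.15; CLUH was over 1.5-fold higher in replicate 1 (0.90) and NRF1 over 1.5-fold lower (-0.62, from 36 counts in replicate 1 and 77 in replicate 2). TFAM, which packages mitochondrial DNA, had 3.1 TPM in replicate 1, against 3.2 TPM in replicate 2. No assembled gene carried the name PPARGC1A.

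Counts and TPM gave unequal differences for a few complex I names. NDUFA10 had a ratio of 0.56 on counts and 1.33 on TPM, NDUFC1 1.10 and 1.55, and the assembly factor NDUFAF3 -0.06 and 0.39. Across the 37 structural names, the ratio on counts had a Spearman correlation of -0.26 with the length of the leading assembled gene and of 0.10 with mean TPM, both descriptions across genes.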
